A study of Rattus norvegicus with 8 samples.

Results

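The inducible HSP70 system is described here in burned and unburned rat skin. It was taken as 6 gene identifiers of the 26404 in the count table, all of which were present. They are ENSRNOG00000045654 and ENSRNOG00000050647 for the near-identical copies Hspa1a and Hspa1b, ENSRNOG00000034066 for Hspa8, ENSRNOG00000021824 for Dnajb1, ENSRNOG00000000902 for Hsph1 and ENSRNOG00000020298 for Bag3. The names came with this list of identifiers. The count table holds identifiers only and the RefSeq table used here pairs 0 of its 47357 genes with an Ensembl rat identifier, so the pairing of names and identifiers could not be checked. Which Hspa1 identifier is Hspa1a and which is Hspa1b was not established, and the copies are called by identifier and as their sum.

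RNA came from dorsal hind paw skin of Sprague-Dawley rats weighing 125 to 200 g, kept under urethane anaesthesia (1.5 g/kg) with body temperature held at 37 °C, and killed under pentobarbital (40 mg) before the skin was taken. For the burn group, a hind paw was immersed to the ankle in 60 °C saline for 2 min, a deep partial-thickness scald. For the control group, the opposite paw of a scalded animal was immersed in room-temperature saline at the same time, so control skin shared the anaesthesia, the immersion and the systemic effects of the injury. Each group had 4 libraries of poly(A)-enriched RNA. The labels state neither sex, exact age nor the interval from scald to excision, and they do not tie a control paw to its burned paw or say that each library is a different rat. The p-values therefore measure only the spread between these samples.

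HSP70 proteins bind exposed stretches of unfolded proteins and release them in a cycle driven by ATP. Hspa8 encodes the form made in unstressed cells, and Hspa1a and Hspa1b encode the form that heat induces through the transcription factor HSF1. Dnajb1 encodes a J-domain protein that delivers clients and starts ATP hydrolysis, while Hsph1 and Bag3 encode nucleotide exchange factors that open the cycle again, and Bag3 also directs clients to autophagy. HSF1 binds heat shock elements, in which GAA units alternate in orientation at fixed spacing, and heat is the classical inducer of Hspa1, Dnajb1, Hsph1 and Bag3.

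The promoters are shown to let the letters of heat shock elements be compared between these genes. RefSeq windows (build GRCr8, 250 bases before to 50 bases after the start) were found by symbol for 5 of the 6 genes. Capitals mark matches to 2 alternating units, GAANNTTC or TTCNNGAA, which read the same on both strands. Matches that overlap form 3 units, GAANNTTCNNGAA or TTCNNGAANNTTC. The windows are chr8:50080264-50080563 on the plus strand for Hspa8, chr19:41431092-41431391 on the minus strand for Dnajb1, chr12:10427118-10427417 on the plus strand for Hsph1 and chr1:192533210-192533509 on the plus strand for Bag3.
Hspa8: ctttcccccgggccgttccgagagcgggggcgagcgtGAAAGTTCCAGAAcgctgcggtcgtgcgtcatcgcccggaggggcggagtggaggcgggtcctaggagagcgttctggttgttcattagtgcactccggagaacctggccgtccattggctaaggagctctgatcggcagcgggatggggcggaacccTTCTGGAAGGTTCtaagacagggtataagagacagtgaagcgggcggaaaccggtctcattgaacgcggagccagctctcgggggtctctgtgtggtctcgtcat
Dnajb1: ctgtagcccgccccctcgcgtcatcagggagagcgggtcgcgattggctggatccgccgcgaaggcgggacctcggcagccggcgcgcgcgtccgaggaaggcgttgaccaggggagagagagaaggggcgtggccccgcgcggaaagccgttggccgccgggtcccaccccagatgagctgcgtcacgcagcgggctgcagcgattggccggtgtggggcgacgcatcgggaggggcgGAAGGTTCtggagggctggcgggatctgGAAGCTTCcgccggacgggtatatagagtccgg
Hsph1: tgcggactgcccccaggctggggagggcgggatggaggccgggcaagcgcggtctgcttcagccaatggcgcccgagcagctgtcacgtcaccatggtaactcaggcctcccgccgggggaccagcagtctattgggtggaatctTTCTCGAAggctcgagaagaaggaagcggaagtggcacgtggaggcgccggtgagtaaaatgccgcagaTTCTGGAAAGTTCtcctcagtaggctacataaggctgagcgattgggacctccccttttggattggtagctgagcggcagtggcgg
Bag3: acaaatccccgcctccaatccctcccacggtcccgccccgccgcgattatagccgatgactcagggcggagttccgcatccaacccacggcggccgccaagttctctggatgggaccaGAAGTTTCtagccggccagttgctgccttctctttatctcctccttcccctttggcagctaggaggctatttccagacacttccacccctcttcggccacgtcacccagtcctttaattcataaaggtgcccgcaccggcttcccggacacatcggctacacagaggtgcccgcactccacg

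Hspa8 held 2 matches to 3 units, at -213 to -201 and at -55 to -43 from the start site. Hsph1 held 1 such match at -36 to -24 and a separate 2-unit match at -105 to -98. Dnajb1 held 2 separate 2-unit matches, at -11 to -4 and at 18 to 25, and Bag3 held 1 at -132 to -125. The window listed for Hspa1a, chr20:3859506-3859805 on the plus strand, held 0 matches, which says only that these letters are not in that window. Of all 33469 windows of this length, 15.9% held at least 1 2-unit match and 0.798% held a 3-unit match. A match describes the letters and does not show binding.

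**Figure D1:**
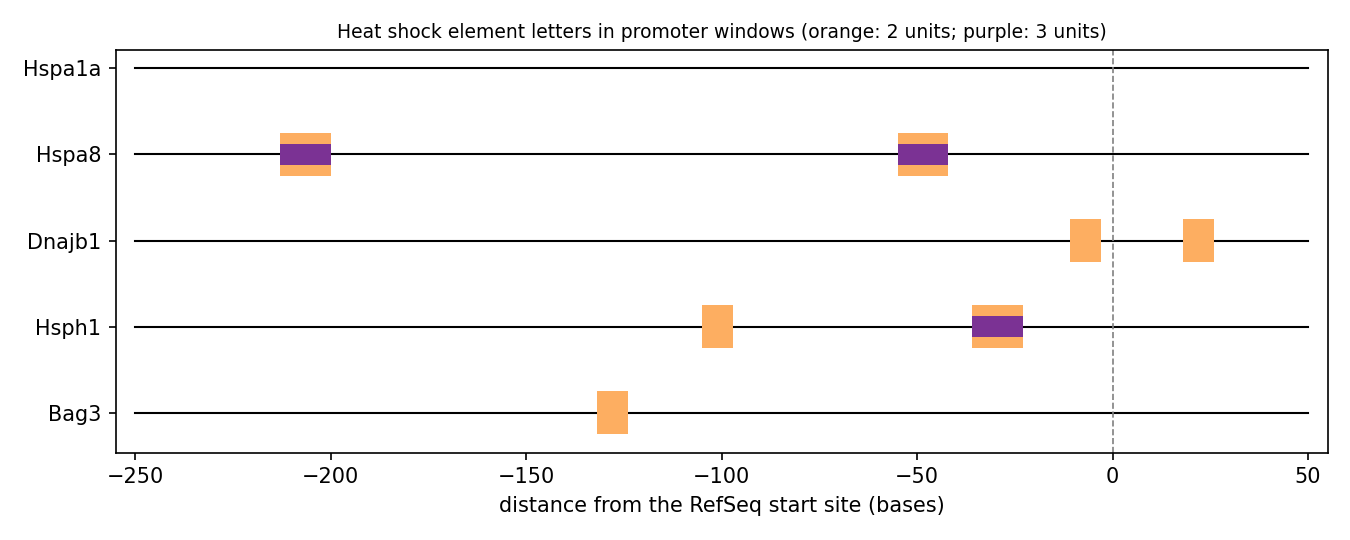
Matches to heat shock element letters along 5 RefSeq promoter windows, with the distance from the start site in bases on the horizontal axis and 1 line per gene. Orange boxes are 2-unit matches and purple boxes 3-unit matches, which appear in Hspa8 (2) and Hsph1 (1) and not in the windows of Dnajb1, Bag3 or Hspa1a.

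Libraries held 13693811 to 18738652 counts in burn and 17824830 to 26837925 in control. Burn replicate 3 stood apart from the other 7 libraries, with 15354 genes detected against at least 17322 and with 625 genes at 1 to 3 counts against at least 1642. Fold changes, the ratios described in full and the profile differences are given with and without it. The edgeR quasi-likelihood test was applied to 14240 genes that passed its default filter on low counts, with Benjamini-Hochberg adjustment over all of them. Levels are CPM, each gene's counts relative to the library total, scaled by TMM factors.

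No member of the HSP70 system passed the test in scalded skin. Of the 6 identifiers, 5 passed the filter, and the edgeR test called 0 of the 5 at an adjusted p under 0.05, where it called 21.9% of all genes tested (11.9% higher in burn and 10.0% lower). At an unadjusted p under 0.05 it picked 1 of the 5, Dnajb1, which was lower in burn, and 37.8% of all genes (17.4% lower). The DESeq2 Wald test and limma-voom, with and without sample quality weights, each called 1 of the 5, again Dnajb1 and again lower. Over all genes DESeq2 called 27.4% (12.8% lower), limma-voom 22.5% (11.7% lower) and limma-voom with weights 30.7% (15.0% lower), so 1 of 5 is a share near the background. Burn and control values overlapped for each of the 5, and they did not overlap for 31.0% of all genes tested. With only 5 genes, 0 of 5 called or not overlapping is not read as a difference from these shares. The median log2 fold change was -0.08 over the 5 and 0.06 over all genes tested. In skin, which holds many cell types, fewer cells of a type and less RNA per cell cannot be told apart.

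**Figure D2:**
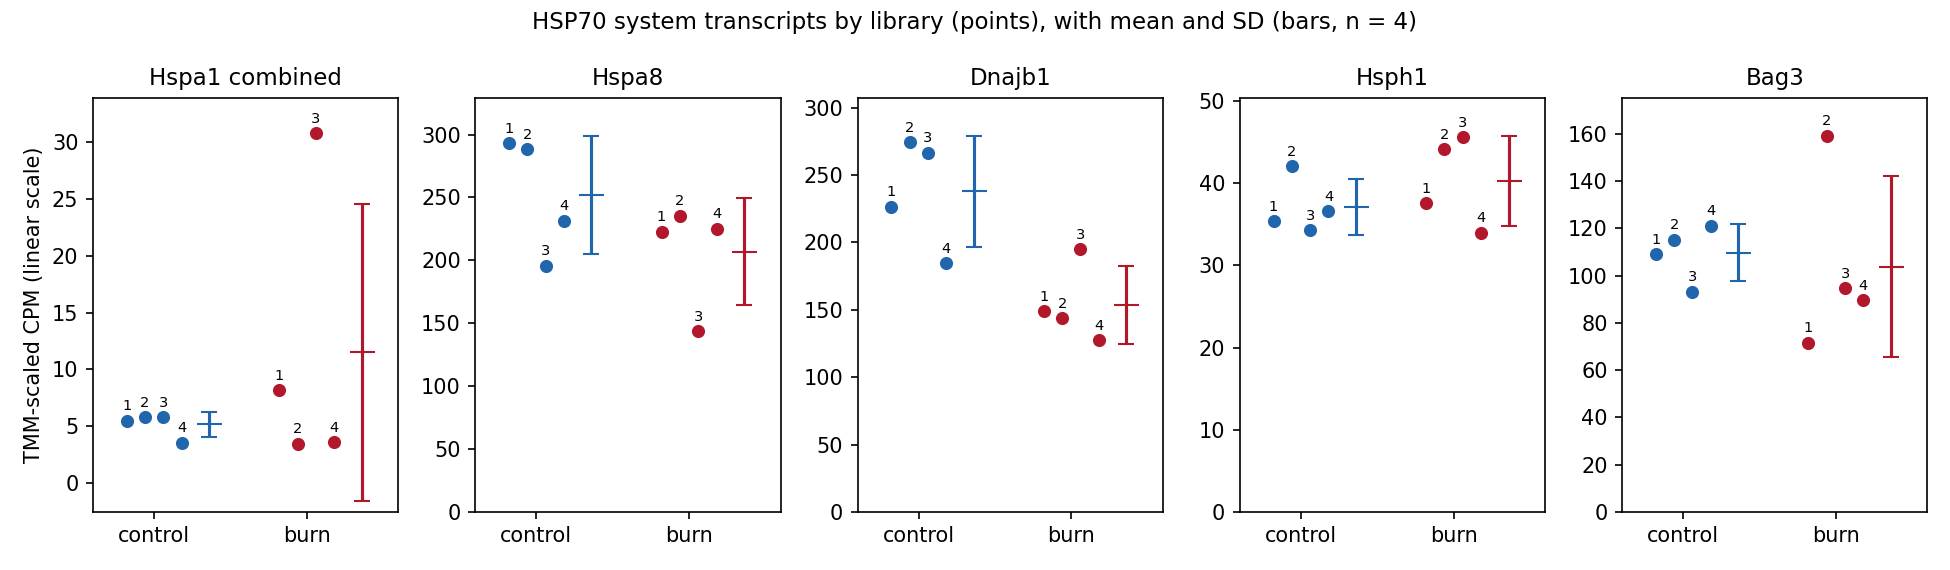
TMM-scaled CPM on a linear scale for the combined Hspa1 copies, Hspa8, Dnajb1, Hsph1 and Bag3, 1 numbered point per library (blue control, red burn), and bars for the mean and SD of each group (n = 4). Burn replicate 3 is far above the others for Hspa1 at 30.8 CPM and lowest for Hspa8 at 144 CPM, and burn replicates 1, 2 and 4 lie below every control for Dnajb1.

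Hspa1, the heat-inducible HSP70, was high in a single burned sample. Its combined level, listed in replicate order as are all such values, was 8.17, 3.45, 30.8 and 3.61 CPM in burn and 5.50, 5.78, 5.78 and 3.54 CPM in control. Burn replicate 3 was highest, burn replicate 1 came next, and burn replicates 2 and 4 were level with the lowest control. The counts behind these levels were 94, 52, 587 and 60 in burn and 141, 167, 117 and 99 in control. The 95% exact Poisson interval, which covers counting error only, was 28.3 to 33.4 CPM in burn replicate 3 and 6.58 to 9.96 CPM in burn replicate 1. That of burn replicate 1 overlapped those of control replicates 2 and 3, whose upper ends were 6.73 and 6.92 CPM, and lay just above that of control replicate 1, which ended at 6.48 CPM.

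Combined Hspa1 had a fitted log2 difference of 1.16 between burn and control (SE 0.68, edgeR adjusted p = 0.241). Its 95% interval ran from 0.774-fold to 6.48-fold, which spans a small decrease and a large increase. The value rested on burn replicate 3. Without that library the log2 fold change was -0.03 (SE 0.37, edgeR adjusted p = 0.953), with a 95% interval of -0.88 to 0.81. The scarcity of low counts in the same library is a value that moved with this result, and its part in the result was not tested.

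Nearly all Hspa1 counts fell on ENSRNOG00000050647, which held 100% of them in every burn library and 95.7%, 100%, 98.3% and 97.0% in the control libraries. ENSRNOG00000045654 had 0 counts in all 4 burn libraries and 6, 0, 2 and 3 in the control libraries, and it did not pass the filter. A count of 0 allows up to 0.260 CPM, after TMM scaling, in the shallowest burn library, so no difference between groups is read from so few counts. The share on ENSRNOG00000050647 did not differ beyond the spread between libraries (two-sided exact permutation test, p = 0.143). Control replicate 2 was the only control library at 100%. Leaving it out therefore separated the groups, at a difference of 3.00 percentage points. The exact permutation p was then 0.0286, the smallest possible. Both tests rest on 11 counts of the other copy in control and 0 in burn. Reads from near-identical copies align in both places, and counting programs commonly discard such reads. The labels do not state the setting used for that, so the Hspa1 level may cover only part of its RNA and is not ranked against the level of another gene.

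Set against the other burned samples, Hspa1 in burn replicate 3 was 2.70 log2 units, or 6.48-fold, above their mean. In that library 73 of the 14240 genes tested, 0.513%, differed upward by at least as much. The partner genes did not share this size. Dnajb1 was above the mean of the other burn libraries by 0.48 log2 units and Hsph1 by 0.25, while Bag3 differed by -0.09 and Hspa8 by -0.66. The median of all genes was -0.08 on this scale.

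**Figure D3:**
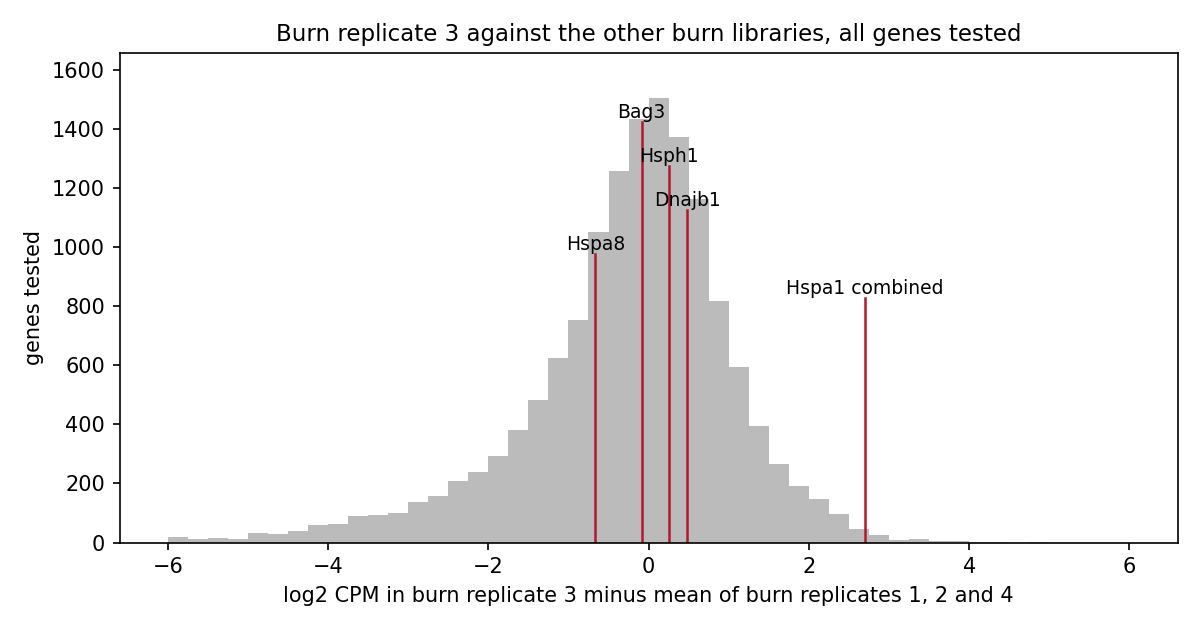
Number of genes tested by the log2 CPM difference between burn replicate 3 and the mean of burn replicates 1, 2 and 4, in bins of 0.25 log2 units with values beyond 6 placed in the end bins, and red lines at the members. Hspa1 lies in the right tail at 2.70, and the other 4 lie between -0.66 and 0.48.

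Hspa8, the constitutive HSP70, was somewhat lower on average in burned skin, within the spread between libraries. Its level was 223, 236, 144 and 225 CPM in burn and 293, 288, 196 and 232 CPM in control. Burn replicates 1, 2 and 4 lay inside the control range and close to each other, and only burn replicate 3 fell below every control. The means were 207 ± 42.4 and 252 ± 47.0 CPM (SD, n = 4), which differed by -0.29 log2 units in the fit (SE 0.22, edgeR adjusted p = 0.364, 95% interval -0.77 to 0.20). Without burn replicate 3 the log2 fold change was -0.15 (SE 0.17, edgeR adjusted p = 0.537). The lowest Hspa8 level and the highest Hspa1 level thus came from the same library.

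Dnajb1, the J-domain partner, was the member nearest to the threshold, and it was lower rather than higher after the scald. Its level was 149, 144, 195 and 128 CPM in burn and 226, 274, 267 and 185 CPM in control. All 4 burn libraries were below the control mean and 3 of them were below every control, while burn replicate 3 lay just above control replicate 4. The means were 154 ± 29.0 and 238 ± 41.3 CPM (SD, n = 4), and the fitted level was 1.55-fold lower in burn (log2 fold change -0.63, SE 0.20). The 95% interval of the log2 fold change was -1.08 to -0.18. The edgeR adjusted p was 0.0506, which missed the threshold of 0.05. Without burn replicate 3 the difference was 1.70-fold and passed it (log2 fold change -0.77, edgeR adjusted p = 0.0146), in a comparison that called 29.3% of all genes tested and 13.3% as lower. The library left out was the only burn library that overlapped the controls. Of 8 fits that each left out 1 library, 7 kept the edgeR adjusted p above 0.05. Over 17 alternatives the adjusted p was 0.00709 to 0.134 and was under 0.05 in 5, with burn lower in each.

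Hsph1 and Bag3, the exchange factors, had means close to control. Hsph1 was at 37.5, 44.1, 45.6 and 34.0 CPM in burn and at 35.4, 42.0, 34.3 and 36.6 CPM in control. Burn replicates 2 and 3 were above every control and burn replicate 4 just below the lowest control. Its log2 fold change was 0.12 (SE 0.16, edgeR adjusted p = 0.607), and the 95% interval, 0.851-fold to 1.39-fold, was the narrowest of the 5. Without burn replicate 3 the log2 fold change was 0.05 (SE 0.14, edgeR adjusted p = 0.810). Hsph1 also varied little in both groups, since 11.3% of the genes tested had a smaller SD in burn and 17.8% in control.

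Bag3 was at 71.6, 159, 94.7 and 89.5 CPM in burn and at 109, 115, 93.1 and 121 CPM in control. Burn replicate 2 was above every control, and burn replicates 1 and 4 were below every control. The log2 fold change was -0.08 (SE 0.25, edgeR adjusted p = 0.843), with a 95% interval of 0.642-fold to 1.40-fold. Without burn replicate 3 it was -0.04 (SE 0.27, edgeR adjusted p = 0.921). The sample highest for Bag3, burn replicate 2, was among the lowest for Hspa1, level with burn replicate 4 and control replicate 4 within counting error. Bag3 and Hspa1 were thus highest in different burned samples.

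**Figure D4:**
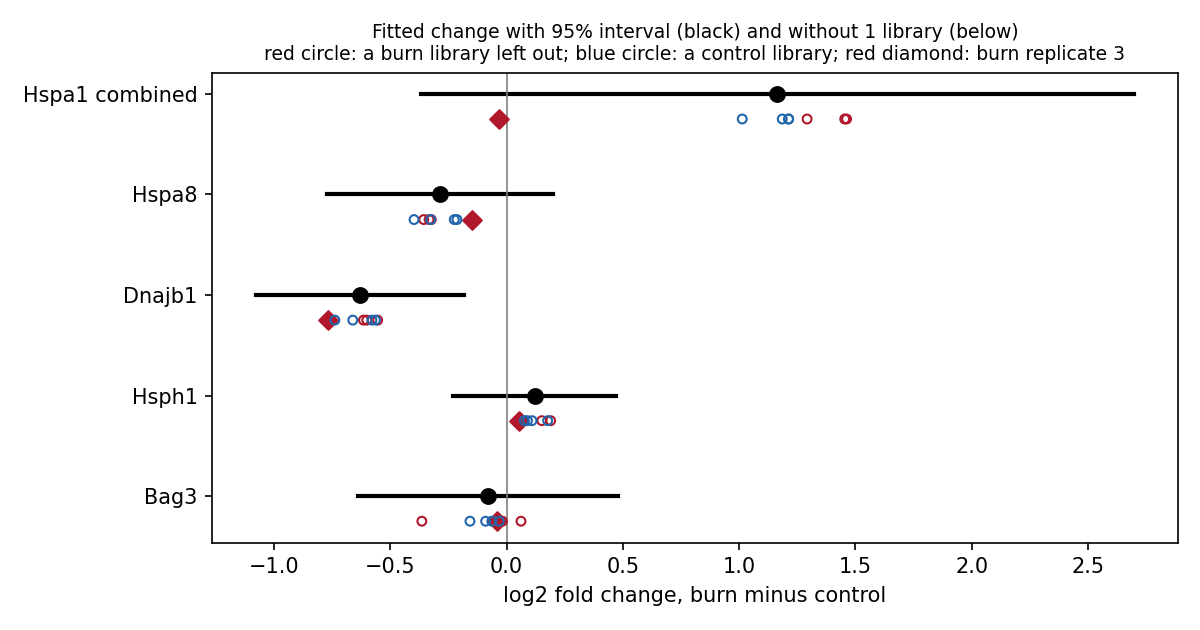
Fitted log2 fold change, burn minus control, on the horizontal axis for the combined Hspa1 copies and the 4 other genes, with the 95% interval in black. Circles below each line are fits without 1 burn library (red) or 1 control library (blue), and the red diamond is the fit without burn replicate 3, which takes Hspa1 from 1.16 to -0.03.

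Ratios of counts within a library do not depend on the scaling between libraries, so 7 ratios between members were compared. They are not corrected for transcript length, and only their difference between groups is read. None of the 7 separated burn from control beyond the spread between libraries (two-sided exact permutation tests, smallest p the design allows 0.0286; the adjusted p over the 7 ratios was 0.400 to 0.629). The nearest was Dnajb1 to Hspa1. Its log2 ratio was 4.18, 5.37, 2.66 and 5.13 in burn and 5.36, 5.56, 5.52 and 5.69 in control. The burn values were below every control in 3 of 4 libraries and more widely spread, at 4.34 ± 1.23 against 5.53 ± 0.14 (SD, n = 4, exact permutation p = 0.0571, adjusted p = 0.400). The difference was -1.20 log2 units, and -0.64 without burn replicate 3 (exact permutation p = 0.0571). Without burn replicate 2, the only burn library inside the control range, it was -1.54. The groups then no longer overlapped, and the exact permutation p was 0.0286, the smallest possible. The library left out was the 1 that overlapped the controls, so no separate support is read from this p.

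Hspa1 relative to Hspa8, the inducible against the constitutive form, had log2 ratios of -4.76, -6.08, -2.22 and -5.95 in burn and -5.73, -5.63, -5.07 and -6.02 in control. Burn replicate 3 stood 3.40 log2 units above the control mean, while burn replicates 2 and 4 lay at the lower end of the controls. The mean difference was 0.86 log2 units (exact permutation p = 0.543) and 0.02 without burn replicate 3 (exact permutation p = 0.971). Dnajb1 relative to Hspa8 was below every control in burn replicates 1, 2 and 4, at -0.58, -0.71 and -0.82, and at 0.44 in burn replicate 3, against -0.37, -0.07, 0.45 and -0.33 in control. Its mean difference was -0.34 log2 units (exact permutation p = 0.371) and -0.62 without burn replicate 3 (exact permutation p = 0.0571). Burn replicate 3 was the only burn library inside the control range of this ratio, so leaving it out separated the groups.

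**Figure D5:**
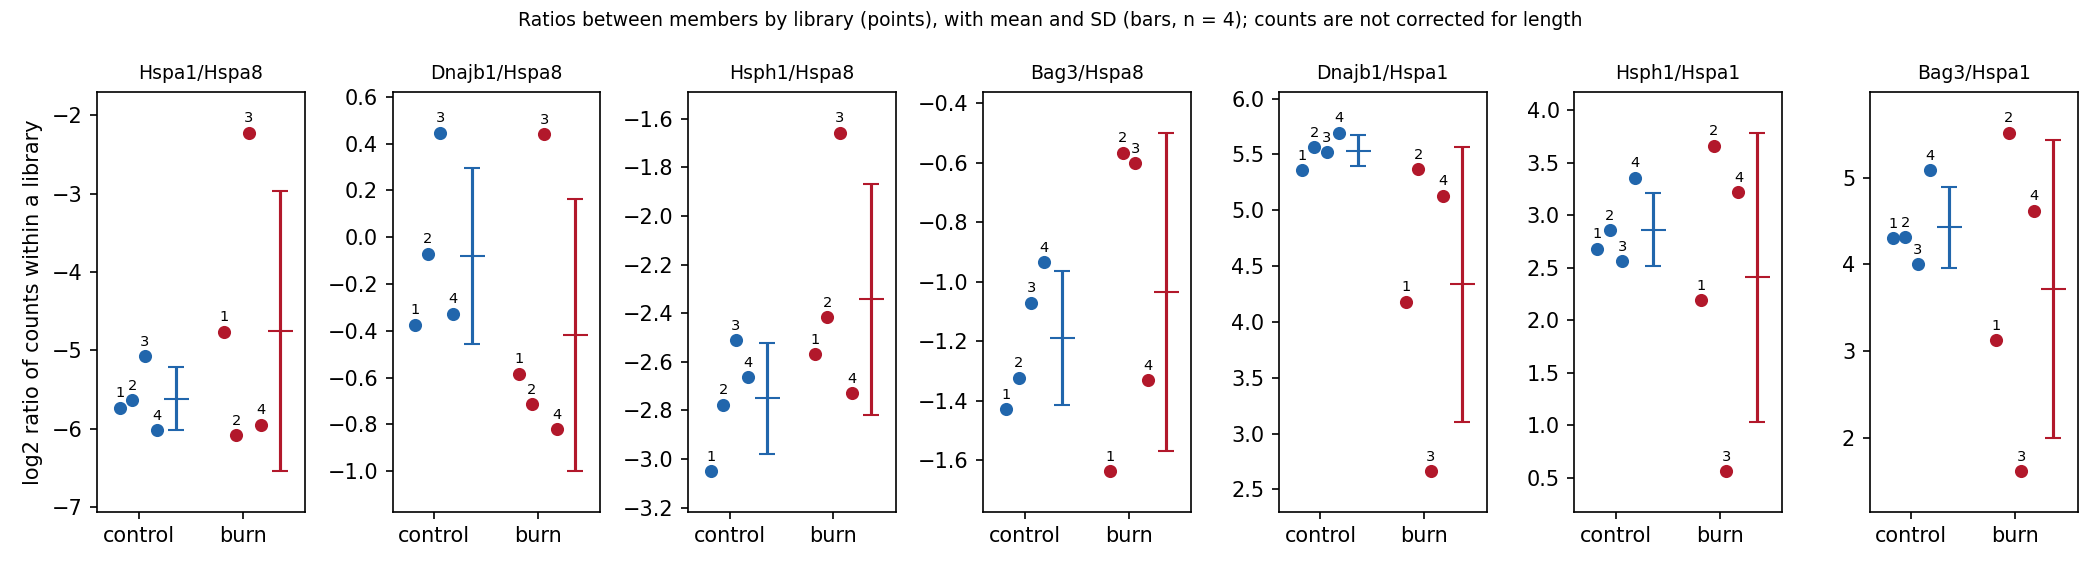
Log2 ratio of counts between members within each library, 7 ratios in separate panels with their own vertical scales, 1 numbered point per library (blue control, red burn) with mean and SD (n = 4). Burn replicate 3 is the highest burn point for Hspa1/Hspa8 at -2.22 and the lowest for the 3 ratios to Hspa1.

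Together the 6 identifiers accounted for 0.0411%, 0.0472%, 0.0611% and 0.0428% of the burn libraries and for 0.0714%, 0.0780%, 0.0676% and 0.0603% of the control libraries. Burn replicates 1, 2 and 4 were below every control, and burn replicate 3 just above control replicate 4. These shares are of all counts without TMM scaling, and a few abundant genes that take more of a library lower the share of all others.

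Over the 8 libraries, the profile of Hspa1 differed from those of the other members more than these differed from each other. Profiles were compared as log2 CPM minus the control mean, by the root mean square difference over the libraries. The smallest difference within the system was between Hsph1 and Bag3, at 0.32 log2 units, and the largest was between Hspa1 and Hspa8, at 1.27. The differences from Hspa1 rested on burn replicate 3. Without that library, a comparison added after the data were seen, Hspa1 and Hspa8 differed by 0.46, the largest difference was between Hspa1 and Bag3 at 0.71 and the smallest between Hspa8 and Hsph1 at 0.21. Against Hspa1, the nearest member over all 8 libraries was Hsph1 at 0.92, which ranked 3231 of 14239 genes, and without burn replicate 3 it was Hspa8 at 0.46, which ranked 2095. The gene nearest to Hspa1 was ENSRNOG00000031097 at 0.25 log2 units. Relative to its control mean it stood at 0.46, -0.29, 2.16 and -0.37 in the burn libraries, where Hspa1 stood at 0.68, -0.54, 2.58 and -0.47. The next was ENSRNOG00000020579 at 0.27. Without burn replicate 3 they ranked 16 and 8, at 0.21 and 0.20 log2 units. Both were highest in burn replicate 3, next highest in burn replicate 1 and below their control mean in burn replicates 2 and 4. That order follows from their choice as the genes nearest to Hspa1 and is no separate support. No table used here names them.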

How the data were processed

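The authors deposited 1 table of raw read counts (whole numbers) for Ensembl rat genes, without normalisation, each library in its own column. Per the submitters' processing notes, TopHat2 2.0.9, HTSeq 0.5.4p3, edgeR, R 3.0.1, limma and the build Rnor_5.0 were named, without roles. The annotation, the strand setting and the handling of reads with several alignments are not stated in the labels. The group of each library came from its treatment label, and replicate numbers follow accession order and pair nothing.

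All 8 libraries were fitted with edgeR 4.0.16 in R 4.3.3 (quasi-likelihood test, robust, TMM, default filter, group only, adjusted p under 0.05). The Hspa1 copies were summed in a second table of the same kind. SE is the log2 fold change divided by the square root of F. Log2 CPM used a prior count of 2, ratios had 0.5 added to each count, and the limit for a count of 0 was 3 counts. Alternatives included DESeq2 1.42.0 and limma 3.58.1. The procedure was tested on simulated data. Repeat deposits were not found, since the closest pair within a group had a chi-square 23.7 times that of sampling noise.

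The members and lists were chosen with earlier results of these data known. The rule for named genes took the members and the 2 identifiers nearest to Hspa1 in profile. Lists of other chaperones, HSF1 targets and cell type markers, the check of the tissue included, were not analysed here, because no table used pairs the identifiers with symbols.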

Additional observations from a re-analysis of the deposited data

Results flagged for a closer look

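Each member's log2 CPM, and each ratio, was screened in each group for 1 library far from the other 3. Of 26 screens, which share libraries and genes, 2 picked a library, and chance picks about 1 in 20 of separate screens. Hspa8 in burn replicate 3 was at 7.17 log2 CPM, where the nearest burn library was at 7.80. Combined Hspa1 in control replicate 4 was at 1.86 log2 CPM, where the nearest control library was at 2.48. Hspa1 in burn replicate 3, at 4.95 log2 CPM, was not picked by this screen, because burn replicate 1 at 3.05 lay between it and the others.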

How the results depend on the processing

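Of 100 recomputed fold changes of the members, 89 stayed in the same direction and on the same side of the threshold, as did 66 of 70 recomputed ratio differences (threshold on the exact permutation p). The fold change calls that moved were those of Dnajb1, whose log2 fold change was -0.69 with no filter (edgeR adjusted p = 0.0493), -0.66 by DESeq2 (adjusted p = 0.0183), -0.63 by limma-voom (adjusted p = 0.0438) and -0.77 with quality weights (limma adjusted p = 0.00709), all past the threshold. Combined Hspa1 was 0.63 by limma-voom. It changed sign with quality weights, at -0.042 combined and -0.0034 for ENSRNOG00000050647. Library size alone moved the median of all genes from 0.06 to -0.15. It gave -0.076 for Hsph1, which is 0.073 relative to that median, and -0.54 for Hspa8 (edgeR adjusted p = 0.0774), -0.31 for Bag3 and 894 genes higher, so that 29.5% of calls were higher instead of 54.2%. DESeq2 called 2184 genes lower, and an adjusted p under 0.01 left 412 higher and 267 lower. With 5 added to each count the Dnajb1/Hspa1 difference was -1.22 (exact permutation p = 0.0286). Without 1 library at a time, log2 fold changes ran from -0.033 (without burn replicate 3) to 1.46 for combined Hspa1, -0.0023 to 1.49 for ENSRNOG00000050647, -0.77 (without burn replicate 3) to -0.55 for Dnajb1 and -0.36 (without burn replicate 2) to 0.062 (without burn replicate 1) for Bag3. Ratio differences ran from -0.00081 to 0.36 for Bag3/Hspa8, -1.54 (without burn replicate 2, exact permutation p = 0.0286) to -0.64 for Dnajb1/Hspa1 and -0.87 to 0.16 for Hsph1/Hspa1, and the copy share difference from 1.58 to 3.00 percentage points (without control replicate 2, exact permutation p = 0.0286). For the ratio and the share at that exact permutation p, the library left out was the only library of its group that overlapped the other group. Genes called ran from 673 to 2314 higher and 546 to 1929 lower. The cause of these changes was not tested. No paired analysis was possible because the labels carry no number that links a burned paw to its control paw.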
